A study of Mus musculus with 84 samples.

Results

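The 7 genes described here encode the machinery of MHC class II antigen presentation and were chosen by name: H2-Aa, H2-Ab1, H2-Eb1, Cd74, Ciita, H2-DMa and H2-DMb1. All 7 are listed among the 48526 genes of the EAE table and among the 25773 genes of the subtype table. Astrocytes were isolated from mouse brain and spinal cord as ACSA-2-positive cells and sorted on GLAST, with cells carrying CD11B or CD45 excluded, and their RNA was sequenced from the 3′ end. The EAE experiment used 10-week-old female C57BL/6 mice that were immunized with a MOG peptide in complete Freund's adjuvant with pertussis toxin, and unimmunized mice served as controls (C). Libraries were made at a clinical score of 1 (E1), at a score of 4 (E4) and at the chronic stage (Ech). Spinal cord GLAST-negative astrocytes gave 5 libraries at C, 5 at E1, 6 at E4 and 6 at Ech. Hindbrain GLAST-negative astrocytes gave 5, 6, 6 and 6 libraries, and hindbrain GLAST-positive astrocytes gave 5, 6, 6 and 4. The subtype experiment comprised 3 libraries each of forebrain GLAST-negative, forebrain GLAST-positive, hindbrain GLAST-negative, hindbrain GLAST-positive and spinal cord GLAST-negative astrocytes of naive FVB/N mice, and 3 libraries of astrocytes cultured from neonatal C57BL/6J mice, which had been kept with L929-conditioned medium before microglia were shaken off. A library could pool up to 2 mice, so p-values measure the spread between libraries.

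MHC class II molecules are heterodimers of an α and a β chain that carry peptides of endocytosed proteins to the cell surface, where CD4 T cells read them. The invariant chain Cd74 guards the groove of the new dimer on its way to the endosome, and the H2-DM dimer then exchanges the invariant chain remnant for peptide. Ciita, the class II transactivator, does not bind DNA itself but is recruited to an enhanceosome of RFX, CREB and NF-Y proteins on the promoters of these genes, and interferon gamma induces it. Dendritic cells, B cells and macrophages are the main carriers of class II, and astrocytes can be induced to express it by interferon gamma in culture. C57BL/6 mice have the haplotype H-2b, in which the gene of the I-E α chain is defective, so the product of H2-Eb1 finds no partner there.

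In GRCm38 coordinates, the genes of the 5 chains and chaperones of the H2 family lie within the MHC on chromosome 17: H2-DMa at 17:34119541-34139101 (plus strand), H2-DMb1 at 17:34153072-34160230 (plus), H2-Ab1 at 17:34257689-34269419 (plus), H2-Aa at 17:34282744-34287823 (minus) and H2-Eb1 at 17:34305867-34316674 (plus). Cd74 lies on another chromosome, and Ciita is at 16:10480059-10528418 (plus). Class II promoters are known for an X box, bound by RFX, followed at a set distance by a Y box, bound by NF-Y. The stretch that holds both is shown for H2-Aa and H2-Eb1, classical chains that rose in 9 and 7 of the 9 stage comparisons with controls described here, with a GNAACT match of the X box and a TGATTGG match of the Y box in capitals. H2-Ab1, which rose in 8 of the 9, Cd74 and Ciita were not searched for these boxes.

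H2-Aa, chr17:34287855-34287916 (minus strand): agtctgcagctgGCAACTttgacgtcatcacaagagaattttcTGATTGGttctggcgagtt

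H2-Eb1, chr17:34305764-34305824 (plus strand): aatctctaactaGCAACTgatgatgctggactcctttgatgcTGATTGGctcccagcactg

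The sequences are from RefSeq (GRCm38.p6) and run 5′ to 3′ on the strand of the gene. The matches lie 25 bases apart in H2-Aa and 24 bases apart in H2-Eb1, and the Y box ends 43 and 54 bases before the annotated start. H2-DMb1 held the pair as well, 25 bases apart and 56 bases before the start that RefSeq gives it, which lies downstream of the start of the interval given above. H2-Eb2, a class II gene not called in any comparison with controls, also held it, 24 bases apart and 95 bases before its start. Neither of the 2 windows of H2-DMa held the pair, nor did those of the further class II genes H2-Oa, H2-DMb2 and H2-Ob. The motif letters were chosen after these sequences had been read, and both strands were searched. GNAACT alone occurred in 42.8% of 32851 promoter windows of 300 bases, TGATTGG in 7.82%, and the ordered pair within 40 bases in 0.335% (110 windows). A match describes letters, not binding.

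The EAE libraries held between 1313682 and 4895220 counts (median 2936680), and 3 counts in a library corresponded to between 0.613 and 2.28 CPM by its unscaled total. CPM are the counts of a gene per 1e6 counts of its library, and all other CPM values use library totals scaled with TMM factors, save where 3 counts are converted. Intervals and floors given here cover the counting error of pooled counts only, and not the spread between libraries. The reads carried no molecular identifiers, so the intervals may be too narrow even for counting error. QuantSeq counts 1 tag per transcript end, so CPM values do not scale with gene length. In the hindbrain libraries 9 astrocyte genes summed to between 15040 and 27980 CPM, which does not by itself place a library by region or by GLAST. In the spinal cord that sum ran from 11240 to 16030 CPM at C, from 3068 to 20260 at E1, from 402 to 1766 at E4 and from 556 to 1347 at Ech, while 5 oligodendrocyte genes summed to between 2022 and 6835 CPM at C and between 14850 and 21990 at E4. The 5 oligodendrocyte genes summed to between 5500 and 19920 CPM at E1 and between 5207 and 12720 at Ech. In E1 replicates 1, 3, 4 and 5 this sum exceeded that of the astrocyte genes, and in replicate 2 it did not. Median sums of 4 oligodendrocyte precursor genes were 272 CPM at C and 1323 CPM at Ech. The spinal cord libraries at E1, E4 and Ech are therefore described by their labels. What share of their RNA came from astrocytes is not known. Whether oligodendrocyte or precursor RNA contributed to the class II levels was not tested. Replicate 1 of spinal cord E1 is called hindbrain in another field of its label, and its 5 thoracic Hox genes summed to 179 CPM against at most 2.63 CPM in hindbrain GLAST-negative libraries at E1. Replicate 2 of spinal cord E4 stood apart in class II and in myeloid transcripts, with 1772 CPM over the 7 genes against 59.8 to 141 in the others. Replicate 1 of hindbrain GLAST-negative E4 stood apart in class II transcripts, with 367 CPM against 66.5 to 130. In hindbrain GLAST-positive libraries, E1 replicate 4 and E4 replicate 1 stood apart in H2-DMa and in the sum of 12 myeloid genes. That sum was 673 and 916 CPM, and 5 T cell genes summed to 235 and 372.5 CPM in the same libraries. Which cells the sum of the 12 genes came from was not tested. In bulk libraries, fewer cells of a type and less RNA per cell cannot be told apart.

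**Figure D1:**
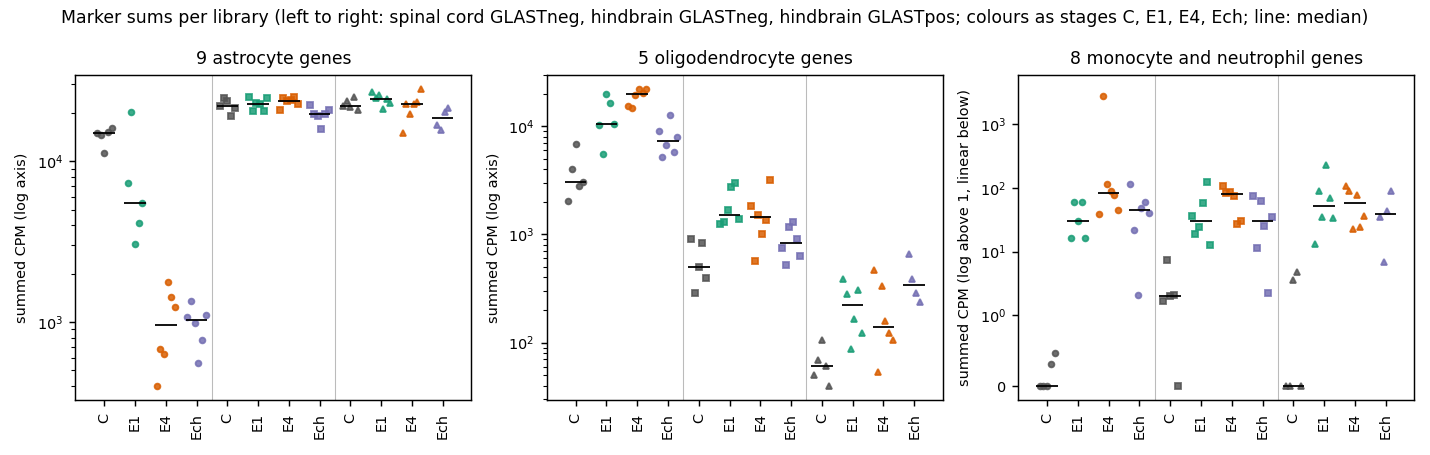
Summed CPM of 9 astrocyte, 5 oligodendrocyte and 8 monocyte and neutrophil genes in each EAE library (vertical axes, log scale, with the part below 1 CPM linear in the right panel), by stage and population on the horizontal axis, with the group median as a line. The astrocyte sum of spinal cord libraries lay between 402 and 1766 CPM at E4, under every control at 11240 to 16030, and the monocyte and neutrophil sum of replicate 2 at E4 reached 2808 CPM.

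Class II transcripts were close to absent from controls and present in nearly all EAE libraries of the 3 populations. Over the 15 control libraries, Cd74 and Ciita had 0 counts, H2-Aa had 1, H2-Ab1 13, H2-Eb1 18, H2-DMa 21 and H2-DMb1 28. Over the 51 EAE libraries the same genes had 1503, 120, 3548, 3936, 3297, 779 and 1472 counts. H2-Aa, H2-Ab1 and H2-Eb1 each exceeded every control of their population in 48 of 51 EAE libraries, Cd74 in 44, H2-DMb1 in 41, H2-DMa in 34 and Ciita in 17. All 7 genes reached the minimum of 10 counts in total that was needed for testing. H2-Aa, Cd74 and Ciita did so only through the EAE libraries, so that the number tested says nothing by itself.

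**Figure D2:**
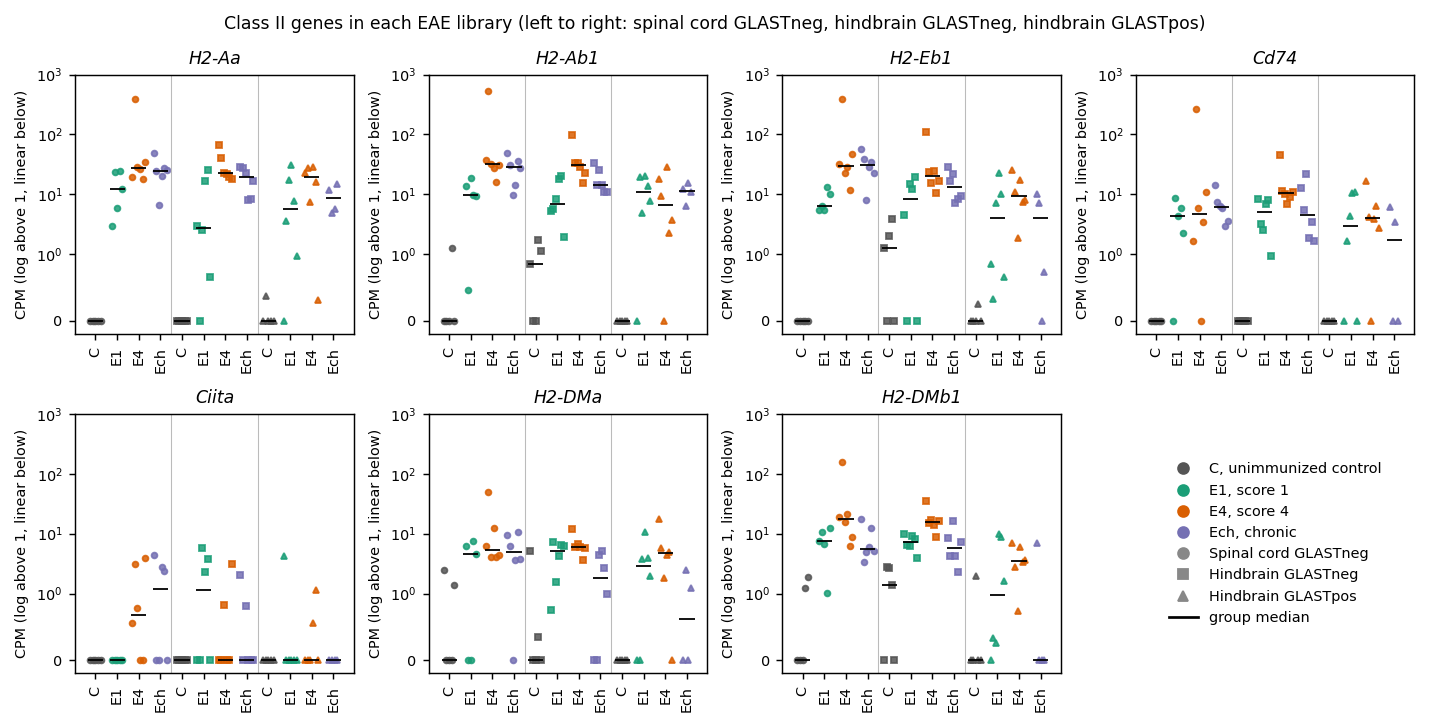
CPM of each of the 7 genes in each EAE library (vertical axes, logarithmic above 1 CPM and linear below), with stage on the horizontal axis, populations from left to right and a line at the group median. H2-Aa was at 0 in all 5 spinal cord and all 5 hindbrain GLAST-negative controls and had medians of 27.4 and 22.7 CPM at E4.

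In spinal cord GLAST-negative libraries, 5 of the 7 genes rose at E1, 6 at E4 and 5 at Ech, against 2.50%, 6.80% and 5.17% of the 23324 genes tested that were called higher in these contrasts. A call required a log2 fold change past 1 and, in edgeR's quasi-likelihood test with Benjamini-Hochberg adjustment over all genes, an adjusted p under 0.05. The median log2 fold change over the 7 genes was 5.01 at E1, 8.43 at E4 and 6.43 at Ech, and with the 4 genes that were at 0 in all controls set to their lower bound it was 4.06, 7.46 and 5.03. The median over all genes tested was 0.00.

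H2-Aa encodes the α chain of I-A, the class II molecule that C57BL/6 mice display. It had 0 counts in all 5 spinal cord controls, and 2.99, 23.2, 5.92, 24.7 and 12.1 CPM in replicates 1 to 5 at E1. At E4 it ranged from 17.97 to 385 CPM with a median of 27.4, and at Ech from 6.55 to 48.9 CPM with a median of 24.8. Every EAE library lay above every control. Against a floor of 3 counts over the control group, the pooled level was at least 58.7-fold higher at E1, at least 332-fold at E4 and at least 118-fold at Ech. Without replicate 2 the bound at E4 was at least 115-fold. The fitted log2 fold changes were 8.34 ± 1.58 (SE), 10.97 ± 1.51 and 9.24 ± 1.53, with adjusted p of 1.8e-04, 2.4e-08 and 2.8e-06 in edgeR, and they depend on the prior count because the controls are at 0.

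H2-Ab1, the β chain of I-A, had counts in 1 of 5 spinal cord controls, at 1.26 CPM. Its values at E1 were 13.7, 0.456, 18.6, 9.59 and 9.56 CPM, and the medians at E4 and Ech were 31.5 CPM (range 16.4 to 532) and 29.1 CPM (9.94 to 49.1). The E1 library at 0.456 CPM overlapped the controls and all E4 and Ech libraries lay above them. The ratio of pooled levels to controls was 37.6 at E1 (95% counting interval 14.4 to 140), 322 at E4 (126 to 1184) and 98.7 at Ech (38.4 to 364). Without replicate 2 it was 93.9 at E4 (36.4 to 346). The log2 fold changes were 5.01 ± 1.13 (SE), 8.43 ± 1.13 and 6.43 ± 1.10, with adjusted p of 0.0016, 9.5e-09 and 4.8e-06 in edgeR.

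H2-Eb1, the β chain of I-E, was at 0 in all spinal cord controls. It had 5.48, 6.38, 5.53, 13.4 and 10.1 CPM at E1, a median of 30.3 CPM at E4 (11.8 to 386) and of 31.4 CPM at Ech (8.03 to 56.4), again with no overlap. The pooled level was at least 37.99-fold higher than the floor of the controls at E1, at least 335-fold at E4 (at least 117-fold without replicate 2) and at least 144-fold at Ech. Its adjusted p was 0.0011, 2.7e-08 and 1.5e-06 in edgeR. An antisense gene, Gm20513, overlaps H2-Eb1 but held only 2 counts in all.

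Cd74, the invariant chain, had no count in any spinal cord control. The level was 0, 8.66, 4.35, 5.82 and 2.25 CPM at E1, while E4 ranged from 0 to 261 CPM with a median of 4.69 and Ech from 3.01 to 14.3 CPM with a median of 6.12. A library at E1 and another at E4 were therefore at 0 with the controls. The pooled level was at least 16.7-fold higher at E1 and at least 32.6-fold higher at Ech. At E4 the bound was at least 176-fold with replicate 2, and at least 20.6-fold without it. Adjusted p was 0.019, 1.6e-05 and 0.0024 in edgeR.

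H2-DMb1, the β chain of the peptide exchange chaperone, had 0, 0, 0, 1.26 and 1.87 CPM in the spinal cord controls and 7.47, 10.5, 6.71, 1.03 and 12.7 CPM at E1. Its medians were 17.5 CPM at E4 (6.14 to 154) and 5.55 CPM at Ech (3.36 to 17.4). The log2 fold changes were 3.59 ± 1.08 (SE), 5.87 ± 1.12 and 3.69 ± 1.06, with adjusted p of 0.024, 2.9e-05 and 0.008 in edgeR. The near-identical H2-DMb2 could take or give reads, so its values carry that uncertainty. H2-DMa, the α chain, rose only at E4, where its median was 5.32 CPM (4.09 to 49.9) against controls at 2.48, 0, 0, 0 and 1.40 CPM. The log2 fold change there was 4.19 ± 1.32 (SE) with an adjusted p of 0.014 in edgeR, and without replicate 2 the adjusted p was 0.076. At E1 and Ech its log2 fold changes were 2.34 and 2.94, with adjusted p of 0.23 and 0.093. H2-DMa overlaps Brd2 on the opposite strand, a gene with 44751 counts over the EAE libraries, and whether the counting used strand is not stated.

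Ciita, the transactivator that class II transcription depends on, was detected in 17 of the 51 EAE libraries. It was at 0 in all controls and in all 5 spinal cord libraries at E1, in which 5 other members rose. At E4 replicates 1 to 6 had 1, 7, 3, 0, 0 and 9 counts and at Ech 19, 0, 0, 6, 8 and 0. The pooled level was at least 5.42-fold and at least 7.12-fold higher than the floor of the controls, with adjusted p of 0.055 and 0.056 in edgeR. Ciita overlaps Dexi on the opposite strand, which had 19040 counts over the EAE libraries.

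In hindbrain GLAST-negative libraries, 1 of the 7 genes rose at E1, 4 at E4 and 2 at Ech, against 0.635%, 0.707% and 0.189% of all genes tested. The median log2 fold change over the 7 was 3.55, 4.44 and 3.63, or 2.84, 4.44 and 3.33 with the 3 genes at 0 in controls set to their bound, and 0.00 over all genes. H2-Aa was the gene called at every stage. It was at 0 in all 5 controls and ranged from 0 to 25.7 CPM at E1 (median 2.79), from 17.8 to 65.8 CPM at E4 (median 22.7) and from 7.98 to 28.8 CPM at Ech (median 19.7). A library at E1 lay at 0 with the controls and all others were above them. The pooled level was at least 35.3-fold, at least 104-fold and at least 67.8-fold higher, with adjusted p of 0.0079, 5.4e-05 and 0.0021 in edgeR. The counts at E1 and Ech depended on the settings. At E1 no gene was called without replicate 5, 3 were called by DESeq2 or with no filter on low counts, and 4 in a fit of this population alone. At Ech 1 gene was called without any 1 of the controls or of Ech replicates 1 and 3, 4 were called with no filter, and 5 in a fit of this population alone.

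Unlike H2-Aa, H2-Ab1 and H2-Eb1 were detected in 3 of 5 hindbrain GLAST-negative controls each. H2-Ab1 had 0.850, 0, 0, 1.73 and 1.12 CPM there, with medians of 6.97 CPM at E1, 30.7 CPM at E4 (15.5 to 98.1) and 14.4 CPM at Ech (10.9 to 33.9), and all 18 EAE libraries lay above the controls. The ratio of pooled levels was 12.6 at E1 (95% counting interval 6.45 to 27.96), 41.1 at E4 (21.5 to 90.3) and 22.1 at Ech (11.5 to 48.9). The log2 fold changes were 3.55, 5.48 and 4.43, with adjusted p of 0.079, 2.5e-04 and 0.023 in edgeR. H2-Eb1 had 1.28, 0, 2.00, 3.81 and 0 CPM in controls and a median of 20.3 CPM at E4 (10.3 to 112), where its log2 fold change was 4.44 ± 0.99 (SE) with an adjusted p of 0.0066. Leaving out replicate 1 of E4 brought this to 3.58 with an adjusted p of 0.061 and left 3 genes called at E4.

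Cd74 was at 0 in the hindbrain GLAST-negative controls and above 0 in all 18 EAE libraries of this population. Its medians were 5.03 CPM at E1 (0.978 to 8.27), 10.7 CPM at E4 (6.85 to 44.7) and 4.45 CPM at Ech (1.65 to 22.2). It was called at E4, with an adjusted p of 0.0087 in edgeR and a pooled level at least 47.8-fold higher, whereas at E1 its adjusted p was 0.099. The H2-DM chains and Ciita were not called at any stage. H2-DMb1 had a log2 fold change of 3.68 at E4 with an adjusted p of 0.068, and the pooled level of H2-DMa at Ech was 1.69 times that of controls with a counting interval of 0.863 to 3.51. Ciita had 30, 9 and 8 counts over the libraries at E1, E4 and Ech, in 3, 2 and 2 of 6 libraries.

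In hindbrain GLAST-positive libraries, 5 of the 7 genes rose at E1, 5 at E4 and 3 at Ech, against 1.27%, 1.66% and 1.21% of all genes tested. The median log2 fold change over the 7 was 6.32, 7.08 and 5.42, or 4.56, 5.11 and 3.51 with the 4 genes at 0 in controls set to their bound, and 0.00 over all genes. The controls were almost empty. H2-Ab1, H2-DMa, Cd74 and Ciita had 0 counts in all 5, H2-Aa and H2-Eb1 had 1 count each, and H2-DMb1 had 6 counts in 1 library.

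H2-Aa had medians of 5.65 CPM at E1 (0 to 30.5) and 19.4 CPM at E4 (0.308 to 28.3), and 11.9, 4.97, 5.73 and 15.0 CPM at Ech. A library at E1 and another at E4 overlapped the controls. H2-Ab1 was at 0 in 1 library at E1 and 1 at E4, with medians of 10.8 and 6.58 CPM, and had 12.2, 6.35, 15.4 and 10.8 CPM at Ech. It was at least 55.99-fold, at least 62.6-fold and at least 60.95-fold higher than the floor of the controls, with adjusted p of 2.8e-04, 2.4e-04 and 9.8e-04 in edgeR. H2-Eb1 ranged from 0.328 to 22.5 CPM at E1 and from 1.84 to 25.4 CPM at E4, above every control, and was 10.3, 7.17, 0 and 0.736 CPM at Ech. Adjusted p was 0.0075, 8.1e-04 and 0.041 for H2-Eb1, and 0.0019, 2e-04 and 0.0053 for H2-Aa.

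Cd74 and H2-DMa were called at E1 and E4 in this population and not at Ech. Cd74 was at least 23.6-fold, at least 33.6-fold and at least 11.4-fold higher than the floor, with adjusted p of 0.034, 0.018 and 0.11 in edgeR. H2-DMa ranged from 0 to 10.5 CPM at E1 and from 0 to 17.3 CPM at E4, with adjusted p of 0.032 and 0.0092. H2-DMb1 was not called. Ciita was found in 1 library at E1, replicate 1, with 15 counts, a library in which H2-Aa, H2-Ab1 and Cd74 were at 0 and H2-Eb1 was at 0.846 CPM. Leaving out 1 library moved the count at E1 by over 1.5 times: 3 genes remained without any 1 of control replicates 1, 2, 4 and 5, and 2 without replicate 4 of E1. A fit of this population alone called 3 at E1.

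Changes between stages were fewer. From E1 to E4, 3 genes rose in the spinal cord, H2-Aa by 2.63 ± 0.81 (SE) on the log2 scale, H2-Ab1 by 3.42 ± 0.79 and H2-Eb1 by 3.42 ± 0.86, with adjusted p of 0.034, 0.0018 and 0.0054 in edgeR and 0.827% of all genes called higher. Without replicate 2 of E4 none was called, and the log2 changes were 0.90, 1.47 and 1.79 with adjusted p of 0.58, 0.21 and 0.19. Without replicate 1 of E1, the library with conflicting labels, 2 were called from E1 to E4 and 5 from C to E1. From E4 to Ech the spinal cord values of H2-Aa, H2-Ab1 and Cd74 were -1.73, -2.0 and -2.79 on the log2 scale, with adjusted p of 0.16, 0.078 and 0.1, and none was called, beside 1.22% of all genes called lower and 1.97% called higher. At an unadjusted p under 0.05 there were 5 of 7, all lower, and DESeq2 called 1, H2-Ab1, lower, as did edgeR without E4 replicate 5. These falls include replicate 2 of E4. Without it, pooled levels relative to controls at E4 and Ech were 93.9 and 98.7 for H2-Ab1. The lower bounds were 114.7 and 118.3 for H2-Aa, 116.8 and 143.5 for H2-Eb1, 20.6 and 32.6 for Cd74, and 4.05 and 7.12 for Ciita. H2-DMa was at 10.16 and 9.55, and H2-DMb1 at 22.9 and 14.65. In the hindbrain no member was called between stages by edgeR. Of all genes, 0% were called higher in GLAST-negative libraries from E1 to E4 and 0% from E4 to Ech, and 0.00857% and 2.69% in GLAST-positive libraries. From E4 to Ech 0.0857% and 0.913% were called lower in these populations. DESeq2 also called none of the 7 there, and at an unadjusted p under 0.05 there were 3, 0, 0 and 0 of 7 in these 4 contrasts.

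The populations were then set against each other. Among controls, no member was called in spinal cord or hindbrain GLAST-positive against hindbrain GLAST-negative libraries, beside 1.58% and 7.06% of all genes called lower and 2.62% and 3.40% called higher. Cd74 and Ciita in both comparisons, and H2-Aa in the first, had 0 counts on either side and could not be called. At an unadjusted p under 0.05 there were 1 and 3 of 7, and DESeq2 called 1 and 3, all lower. The smallest adjusted p was that of H2-DMa, lower in GLAST-positive controls by a log2 fold change of -4.80 with an adjusted p of 0.051 in edgeR. The levels reached during EAE were then tested between spinal cord and hindbrain GLAST-negative libraries. In this comparison, which was added after the data had been seen, H2-Aa, H2-Ab1 and H2-Eb1 differed by log2 fold changes of 1.44 ± 0.72 (SE), 1.56 ± 0.67 and 1.39 ± 0.73 at E4, with adjusted p of 0.13, 0.079 and 0.15 in edgeR, and by 0.45 ± 0.71, 0.61 ± 0.67 and 1.02 ± 0.74 at Ech. None was called at these stages, beside 7.46% and 8.94% of all genes called higher in the spinal cord. DESeq2 called none either, and 2 and 0 of 7 had an unadjusted p under 0.05. Standard errors of this size do not show that the levels are alike. The E4 values include replicate 2 of the spinal cord. Its other E4 libraries ranged from 17.97 to 34.6 CPM for H2-Aa, 16.4 to 37.2 for H2-Ab1 and 11.8 to 46.6 for H2-Eb1. Hindbrain GLAST-negative E4 libraries ranged from 17.8 to 65.8, 15.5 to 98.1 and 10.3 to 112 CPM. Without replicate 1 of hindbrain GLAST-negative E4, 2 genes, H2-Ab1 and H2-Eb1, were called higher in the spinal cord at E4, and without spinal cord E4 replicate 5 H2-Ab1 was. At E1 no member was called higher, against 5.07% of all genes, and Ciita was called lower, against 7.59% of all genes, with 0 counts in 5 spinal cord libraries and 30 counts in 3 of 6 hindbrain libraries (adjusted p = 0.048). That call was absent without any 1 of the spinal cord libraries at E1 or of hindbrain replicates 3, 4 and 5, the libraries that held the counts.

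The difference in response, that is, the change from controls in one population minus that in hindbrain GLAST-negative libraries, was called for 1 member. H2-Eb1 at E4 responded more in the spinal cord by 6.58 ± 2.09 (SE) on the log2 scale, with an adjusted p of 0.034 in edgeR, when 1.92% of all genes were called higher. The groups that make this value are spinal cord controls at 0 in 5 of 5 libraries, hindbrain GLAST-negative controls with 17 counts in 3 of 5, and E4 libraries whose levels did not pass the test against each other. Without spinal cord E4 replicate 2 it was 4.95 with an adjusted p of 0.12, and without hindbrain E4 replicate 1 it was 7.48 with an adjusted p of 0.0095. The call was also absent without any 1 of the spinal cord controls and without hindbrain control 4. A number in the titles recurred between populations of the same stage in 59 of the 66 libraries and in no case between stages. Libraries with the same number may therefore come from the same mice, which the labels do not state, and the test took them as independent. With that number as a block, which was added after the data had been seen, the difference was 4.98 with an adjusted p of 0.23 in edgeR and no member was called. With the same block, the level of Ciita at E1 did not pass the test between spinal cord and hindbrain GLAST-negative libraries (adjusted p = 0.76 in edgeR), and H2-Aa was called higher in the spinal cord there. At E1 and Ech the same difference for H2-Eb1 was 5.11 and 6.21, with adjusted p of 0.29 and 0.057, and no member was called, against 0.0686% and 1.54% of all genes. DESeq2 called 0 and 1 (H2-Eb1), 1 member each had an unadjusted p under 0.05, and H2-Eb1 was called at Ech without hindbrain control 2 or 5 or spinal cord Ech replicate 3. For H2-Aa, Cd74 and Ciita, which were at 0 in both control groups, the difference in response could not be fitted. In the response of hindbrain GLAST-positive libraries, Cd74 and Ciita could not be fitted either, being at 0 in both hindbrain control groups. No other member was called there by edgeR or DESeq2. At an unadjusted p under 0.05 there were 2, 1 and 0 at E1, E4 and Ech, beside 0.00857%, 0% and 0.0557% of all genes called higher.

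Class II transcripts were next compared with those of myeloid cells in each library, because CD11B-positive and CD45-positive cells had been excluded by the sort and macrophages and microglia express class II. The summed level of 12 myeloid genes (among them Ptprc, Itgam, Csf1r, Tyrobp, Aif1 and C1qa) ranged from 9.51 to 46.6 CPM in spinal cord controls, from 64.7 to 210 at E1, from 126 to 4144 at E4 and from 69.3 to 163 at Ech. In hindbrain GLAST-negative libraries it ranged from 41.02 to 99.8 CPM at C, from 159 to 428 at E1, from 160 to 752 at E4 and from 261 to 448 at Ech. In hindbrain GLAST-positive libraries it ranged from 45.4 to 104, from 97.4 to 673, from 120 to 916 and from 109 to 237 CPM. The ranges of C and EAE libraries overlapped only in the GLAST-positive population at E1. Of the 12 genes, 6, 12 and 5 rose in the spinal cord at E1, E4 and Ech, 1, 3 and 1 in hindbrain GLAST-negative and 3, 3 and 1 in hindbrain GLAST-positive libraries. Without spinal cord E4 replicate 2, 8 of 12 rose at E4. The class II genes and the sum of this list were thus both mostly higher in EAE libraries than in controls. Whether myeloid RNA accounts for the class II transcripts was not tested. The list holds Ptprc and Laptm5, which are not confined to myeloid cells.

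The ratio of the class II to the myeloid sum was not constant. In the spinal cord the 7 genes amounted to between 23.5% and 55.4% of the myeloid sum at E1, between 38.3% and 92.4% at E4 and between 33.6% and 127% at Ech. In hindbrain GLAST-negative libraries the shares were 6.95% to 25.04%, 27.1% to 58.1% and 10.1% to 33.7%, and in hindbrain GLAST-positive libraries 4.14% to 23.5%, 8.53% to 34.8% and 13.9% to 22.4%. No control exceeded 11.1%. From E1 to E4 the share ranges of hindbrain GLAST-negative libraries did not overlap, at similar myeloid medians of 313 and 327 CPM. The sum of 8 monocyte and neutrophil genes had medians of 30.4 and 79.5 CPM in the same groups. No member was called between these stages there, and the source of the change in share was not tested.

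**Figure D3:**
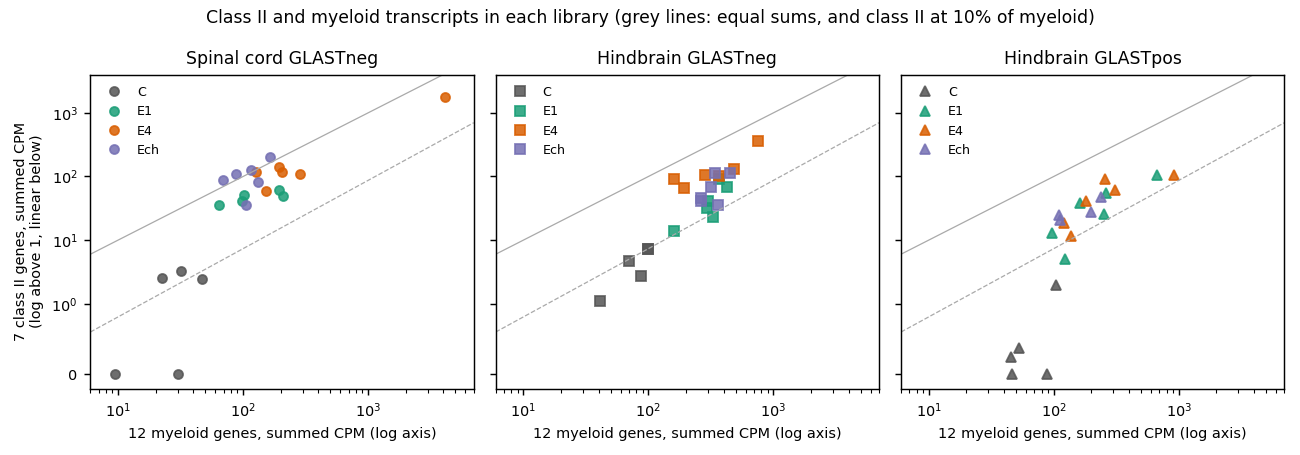
Summed CPM of the 7 class II genes (vertical axis, logarithmic above 1 CPM and linear below) against summed CPM of 12 myeloid genes (horizontal log axis), 1 point per library and 1 panel per population, with lines at equal sums and at a class II sum of 10% of the myeloid sum. Control libraries lie at or below 11.1%, and the EAE libraries of the spinal cord lie between 23.5% and 127%.

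Within stages, libraries with a higher sum of the 12 myeloid genes also had more class II RNA in some populations. A slope per unit of the log2 myeloid sum, centred within each group, was positive and called for 4 of 7 members in the spinal cord, 0 in hindbrain GLAST-negative and 3 in hindbrain GLAST-positive libraries, against 1.06%, 0.00857% and 1.77% of all genes. In hindbrain GLAST-negative libraries 4 slopes had an unadjusted p under 0.05. In the spinal cord the slopes were 0.92 ± 0.17 (SE) for H2-Aa, 0.75 ± 0.16 for H2-Ab1, 0.78 ± 0.17 for H2-Eb1 and 1.36 ± 0.23 for Cd74, where 1 would mean a level in proportion to the myeloid sum, with adjusted p of 5.9e-04, 0.0044, 0.0065 and 1.7e-04 in edgeR. These rested on replicate 2 of E4, without which 0 slopes were called and that of H2-Ab1 was -0.31. In GLAST-positive libraries they were 1.12 ± 0.31 for H2-Aa, 1.06 ± 0.29 for H2-Eb1 and 1.36 ± 0.38 for H2-DMb1, with adjusted p of 0.034, 0.033 and 0.037, and 0 were called without any 1 of E1 replicates 1 and 4 and E4 replicate 3, and 1 without E1 replicate 6 or Ech replicate 1. Ciita had slopes of 0.52, -1.13 and -1.57 in the 3 populations, none of them called.

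With the log2 myeloid sum as a covariate in the stage comparison, the I-A and I-E chains of the spinal cord were still called at all stages. Their log2 fold changes were 6.10, 3.56 and 5.89 at E1, 6.62, 4.56 and 7.29 at E4, and 7.37, 4.89 and 7.93 at Ech for H2-Aa, H2-Ab1 and H2-Eb1. Cd74 was called with them at Ech (4.60), so 3, 3 and 4 members were called in place of 5, 6 and 5, beside 2.94%, 4.77% and 5.48% of all genes called higher in the same fit. In hindbrain GLAST-positive libraries H2-Ab1 was called at E1 (log2 fold change 6.37), H2-Aa, H2-Ab1 and H2-Eb1 at E4 (5.11, 6.08 and 4.68), and H2-Aa and H2-Ab1 at Ech (5.03 and 7.05), beside 0.652%, 1.08% and 0.922% of all genes. In hindbrain GLAST-negative libraries only H2-Aa at E4 (6.94, adjusted p = 0.046 in edgeR) was called, with 0 members at E1 and Ech, beside 0.124%, 0.214% and 0% of all genes at E1, E4 and Ech. The myeloid sum differs between controls and EAE libraries with little or no overlap, so this covariate and the stage can hardly be told apart.

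Markers of narrower leukocyte classes also moved. Of 8 monocyte and neutrophil genes, 5, 8 and 4 rose in the spinal cord at E1, E4 and Ech (6 at E4 without replicate 2), 1, 1 and 0 in hindbrain GLAST-negative and 4, 4 and 2 in hindbrain GLAST-positive libraries, and their sum in the spinal cord was at most 0.468 CPM in controls, 16.6 to 60.6 at E1, 38.9 to 2808 at E4 and 2.11 to 114 at Ech. Of 5 T cell genes, 1, 4 and 2 rose in the spinal cord, 0 at any stage in hindbrain GLAST-negative libraries (3, 3 and 2 at an unadjusted p under 0.05), and 3, 4 and 1 in hindbrain GLAST-positive libraries. Of the 6 microglia genes none rose against controls in any population, and the median of P2ry12, a defining one, lay between 2.62 and 10.1 CPM. Over the 9 stage comparisons, 4 of 54 microglia tests were higher at an unadjusted p under 0.05. Of 5 dendritic cell genes tested none rose (16 of 45 tests higher and 6 lower at an unadjusted p under 0.05), and the B cell gene Cd79a had 0 counts in all EAE groups. The part of these cells in the class II levels was not tested.

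Of the other genes of the class II pathway, Irf1, a transcription factor of the interferon gamma response, rose in every population. Its spinal cord medians were 15.0 CPM at C, 353 at E1, 473 at E4 and 122 at Ech, with no overlap between the controls and any stage. The log2 fold changes of Irf1 in the spinal cord were 4.78 at E1, 4.89 at E4 (4.87 without replicate 2) and 3.65 at Ech. In hindbrain GLAST-negative libraries they were 3.17 at E1 and 3.76 at E4, in GLAST-positive libraries 3.39 at E1 and 4.34 at E4, and Irf1 was not called at Ech in the hindbrain. From E4 to Ech it fell in both hindbrain populations. The receptor chains Ifngr1 and Ifngr2, the kinases Jak1 and Jak2, and the inhibitor Socs1 were not called in any comparison with controls. Among them Jak1 was lower in the spinal cord by log2 fold changes of -0.62, -0.77 and -0.90 at E1, E4 and Ech, which passed the adjusted p but not the fold threshold.

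Of 7 enhanceosome genes (Rfx5, Rfxap, Rfxank, Nfya, Nfyb, Nfyc and Creb1) none rose against controls (3 of 63 tests higher at an unadjusted p under 0.05), and Rfxank was lower in the spinal cord at E4 and Ech by log2 fold changes of -1.23 and -1.01, with adjusted p of 0.0044 and 0.023 in edgeR. Of 8 endosomal genes, the invariant chain protease Ctss rose at E4 in all 3 populations, by 5.05 in the spinal cord (2.49 without replicate 2), 2.36 in hindbrain GLAST-negative (2.04 with an adjusted p of 0.18 without replicate 1) and 2.15 in hindbrain GLAST-positive libraries, and by 1.81 at Ech in the spinal cord. At E4 in the spinal cord the thiol reductase Ifi30 (3.797) and the ubiquitin ligase Marchf8 (1.20), which removes class II from the surface, also rose, and the proteases Ctsl (-1.19) and Lgmn (-1.09) were lower. None of the 8 was called at E1, and 1 in each population had an unadjusted p under 0.05. Of 5 further class II genes, H2-Ea-ps was at 0 in the EAE table and the other 4 (H2-DMb2, H2-Oa, H2-Ob and H2-Eb2) were not called in any comparison with controls (1 of 36 tests at an unadjusted p under 0.05), with at most 18 counts in a group.

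**Figure D4:**
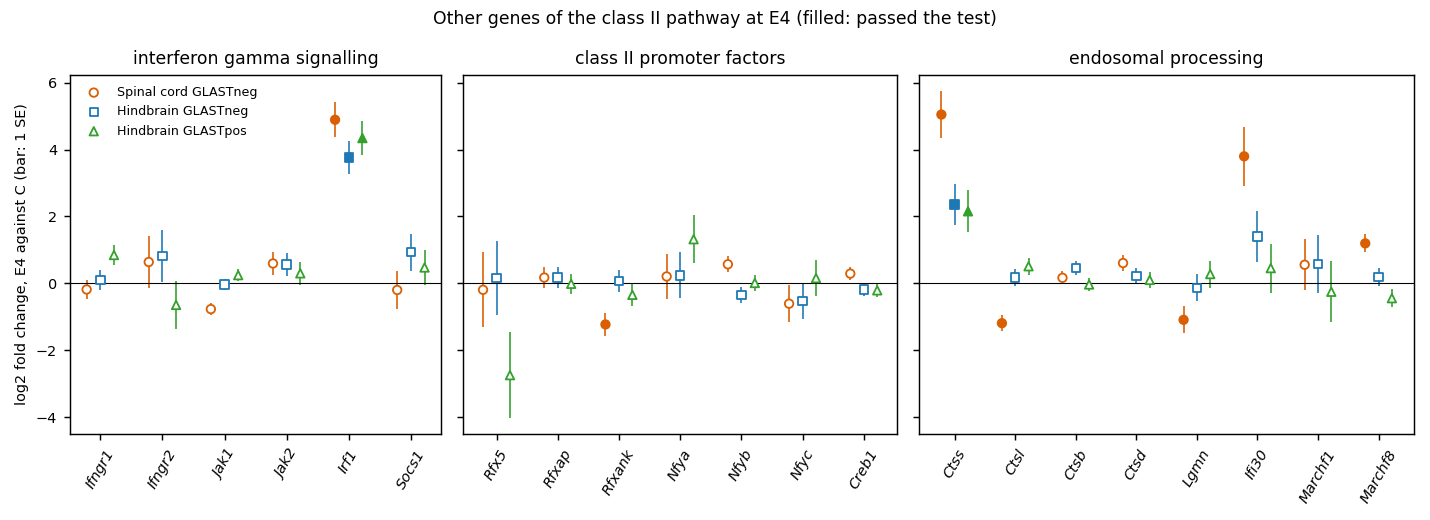
Log2 fold change at E4 against C (vertical axis) with 1 SE for genes of interferon gamma signalling, the class II promoter factors and endosomal processing (horizontal axis), 1 symbol per population, filled where the gene passed the test. Irf1 lies between 3.76 and 4.89 in all 3 populations, and Ctss is filled in all 3 at 5.05, 2.36 and 2.15.

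The genes outside the family whose levels ran most alike with it were sought by Pearson's r between log2(CPM + 1) and the mean standardized level of the 7 members, among genes that averaged 5 CPM or more. Over the 66 libraries these were H2-Q7 (r = 0.85), B2m (0.85), H2-K1 (0.83), Zbp1 (0.83), Lyz2 (0.83), H2-D1 (0.82), Cd300lf (0.81), C4a (0.81), C4b (0.80) and Gbp5 (0.80). H2-K1 and H2-D1 are the classical class I heavy chains and B2m their light chain, Lyz2 is the lysozyme of macrophages and neutrophils, and C4a and C4b are complement genes. The libraries share stages and populations, so these values are a description. Without replicate 2 of spinal cord E4 the class I genes H2-Q7, B2m, H2-K1 and H2-D1 were at 0.88, 0.86, 0.86 and 0.84, and Lyz2 and Cd300lf at 0.80 and 0.76.

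In naive FVB/N mice the 7 genes were at or near 0. The 15 acutely isolated libraries held between 416768 and 1269316 counts, so that 3 counts corresponded to between 2.36 and 7.20 CPM by unscaled totals. The libraries labelled hindbrain GLAST-negative had 414 to 504 CPM of the 5 thoracic Hox genes and those labelled spinal cord GLAST-negative had 0, and a supplementary table of the study names 12 of the 15 libraries differently, so groups are given by their labels. Ciita had no count in any of the 15. H2-Aa and Cd74 had 3 counts or fewer in any group, H2-Eb1 had 0, and H2-DMb1 had at most 2. H2-Ab1 had 8 counts, in libraries labelled hindbrain GLAST-positive (1.63, 6.93 and 0 CPM), and H2-DMa had 0, 9.25 and 1.85 CPM there and 11.8 CPM in 1 library labelled hindbrain GLAST-negative. Only H2-DMa reached 10 counts in total, and it was not called in any of the 5 comparisons of a group with the other 4, by either set of names, beside 0.755%, 1.70%, 2.81%, 1.39% and 4.01% of 14957 genes called higher for forebrain GLAST-negative, forebrain GLAST-positive, hindbrain GLAST-negative, hindbrain GLAST-positive and spinal cord GLAST-negative libraries. DESeq2 called it in none either, and its unadjusted p was under 0.05 in 2 of 5. Class II expression below a few counts per library was not detectable at this depth.

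Cultured neonatal astrocytes, whose libraries held between 2183464 and 8188074 counts, had low levels of all 7 genes. H2-DMa was at 5.95, 6.63 and 8.60 CPM, H2-DMb1 at 4.37, 1.83 and 4.00 CPM, H2-Ab1 at 0.397, 1.71 and 5.20 CPM and Cd74 at 1.59, 1.26 and 3.001 CPM. H2-Aa was at 1.00 CPM or less, and Ciita had 1 count in 1 library. Against the isolated groups, H2-DMb1 (log2 fold change 4.22, adjusted p = 0.0047 in edgeR), H2-Ab1 (4.02, 0.011), H2-DMa (3.65, 0.0091) and Cd74 (3.22, 0.035) of 5 members tested were higher, beside 23.3% of 17126 genes and a median over all genes of 0.43. Of the 5 members tested, only H2-DMa reached the needed 10 counts in the isolated libraries alone. The others were tested only because of the cultured libraries, so the number called of those tested says nothing by itself. Without cultured replicate 3, 2 were called, and DESeq2 called 0. The myeloid sum was 831, 407 and 3182 CPM in the cultured libraries against 4.29 to 295 CPM in the isolated ones, and all 12 myeloid genes were higher. The strain, the age and the culture differ together between these groups and cannot be told apart. At their highest, H2-Aa, H2-Ab1 and H2-Eb1 in culture were at 1.00, 5.20 and 0.800 CPM, under the E4 medians of 27.4, 31.5 and 30.3 CPM in the spinal cord, in tables that were counted separately.

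**Figure D5:**
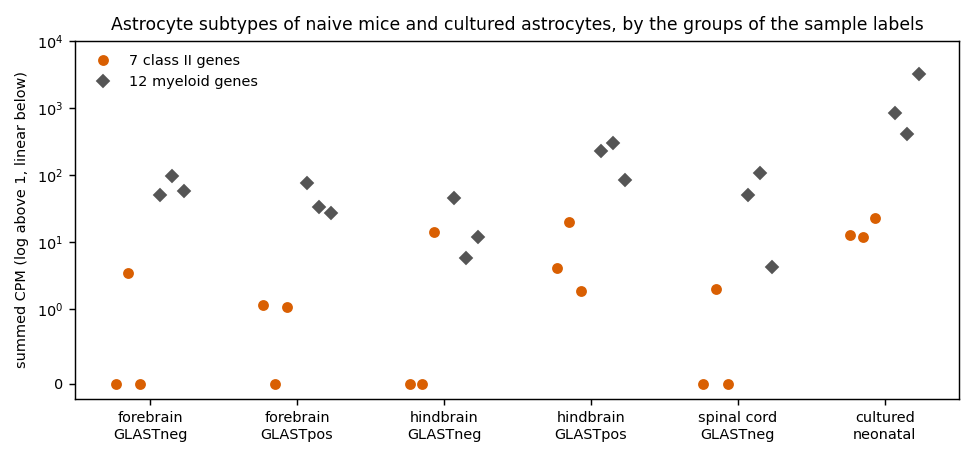
Summed CPM of the 7 class II genes (circles) and of 12 myeloid genes (diamonds) in each library of the subtype experiment (vertical axis, logarithmic above 1 CPM and linear below), with the 6 labelled groups on the horizontal axis. The class II sum is at most 19.7 CPM in isolated libraries and between 11.8 and 22.6 CPM in cultured ones, where the myeloid sum is between 407 and 3182 CPM.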

How the data were processed

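RNA of sorted or cultured astrocytes was made into QuantSeq 3′ libraries and sequenced as single reads. The authors aligned reads to GRCm38 with HISAT, handled alignments with SAMtools and assigned them to genes with HTSeq (union mode), and the submitters' processing notes name HISAT 0.1.5 and HTSeq 0.6.1p1. They deposited whole-number counts per gene, not normalized or pooled, in 1 table per experiment, and every column was mapped to a sample by its name. Neither how the genes of the subtype table were selected nor the strand setting is stated in the sources used here.

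Groups came from the sample labels. Counts were divided by library totals scaled with TMM factors to give CPM, while the CPM of 3 counts in a library used unscaled totals. Counts were tested with edgeR 4.0.16 in R 4.3.3 (TMM scaling, genes with at least 10 counts in total, quasi-likelihood F test, two-sided, Benjamini-Hochberg adjustment over all genes of the fit). Calls needed an adjusted p under 0.05 and a log2 fold change past 1, or for a slope an adjusted p under 0.05. The EAE fit held 66 libraries in 12 groups and 23324 genes, the fit of isolated subtypes 14957 genes and that with cultured libraries 17126. The number of libraries a group sets the precision of these tests. Ratios of pooled CPM carry exact 95% counting intervals. Against a group at 0, the fold was computed against 3 counts over the group. The tests were also run on simulated counts with known changes.

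Values were given for all 7 members. Of the pathway lists, genes called in a comparison with controls could be named, and of genes alike in pattern the 10 with the highest r. Jak1, which missed the fold threshold, was named after its values were seen. A gene of the pathway lists is not reported here. The members, lists and tests were chosen with earlier results of these data known. Libraries with the same replicate number did not deviate together (mean r of -0.0012 in the EAE table, with a lowest of -0.109, and -0.0050 in the subtype table), so they were not paired. The first number in the brackets of the titles recurred between populations of a stage, in 40 pairs of libraries and in 0 pairs across stages. Deviations of these pairs correlated with a mean r of 0.022 (-0.0362 to 0.125, 3 pairs above 0.1), against -0.0026 for other pairs of a stage. Whether the number marks shared mice is not stated, and the main tests took all libraries as independent. Alternatives were other scaling (RLE), other filters, the DESeq2 1.42.0 Wald test, a fit per population, blocks and covariates, the study's supplementary group names, and leaving out each library in turn, for which the trended dispersion of the full fit was kept. A comparison of levels between populations and a block of the number in brackets in the titles were added after seeing the data.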

Additional observations from a re-analysis of the deposited data

Results flagged for a closer look

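A library was marked where its gap to the nearest other library of its group exceeded Dixon's critical value. Of 108 groups of values tested, 27 were marked, 6 of them with all other libraries at 0. The critical value marks about 1 in 20 groups of normal values. These counts are sparse and skewed, and a library that alone lies above 0 is always marked, so that rate does not apply here. Most came from 2 libraries. Replicate 2 of spinal cord E4 was the highest in H2-Aa (384.9 CPM, the next at 34.63), H2-Ab1 (531.8 against 37.22), H2-Eb1 (386.3 against 46.62), Cd74 (261.4 against 11.1), H2-DMa (49.86 against 12.44) and H2-DMb1 (154.1 against 21), in their sum (1772 against 140.7) and in the sum of myeloid genes (4144 against 286.7). Ciita, at 7 counts, was not apart in that library, which also held 468 counts of Ptprc and 1157 of Itgam. Replicate 1 of hindbrain GLAST-negative E4 was the highest in H2-Ab1 (98.13 CPM against 33.02), H2-Eb1 (111.6 against 24.54), Cd74 (44.66 against 11.2), H2-DMa (11.75 against 6.604), H2-DMb1 (35.26 against 16.92) and the sum of the 7 genes (367.2 against 130).

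In hindbrain GLAST-positive libraries, replicate 4 of E1 was marked for H2-DMa (10.52 CPM against 3.851) and the myeloid sum (672.7 against 262.2), and replicate 1 of E4 for H2-DMa (17.25 against 5.719) and the myeloid sum (915.9 against 309.6). The 2 libraries held 581 and 629 counts of Ptprc, and the second had 0 counts of Itgam and Spi1. Their T cell genes summed to 235 and 372.5 CPM. Replicate 1 of E1 was marked for Ciita (4.231 CPM, the others at 0), and replicate 1 of Ech for H2-DMb1 (6.885 CPM, the others at 0). Replicate 6 of hindbrain GLAST-negative E4 was marked for Ciita (3.12 CPM against 0.8256).

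Marked control libraries were replicate 4 of the spinal cord for H2-Ab1 (1.256 CPM, the others at 0), replicate 1 of hindbrain GLAST-negative for H2-DMa (5.098 against 0.3462), and in hindbrain GLAST-positive controls replicate 2 for H2-Aa (0.3789), replicate 4 for H2-Eb1 (0.2538) and replicate 3 for H2-DMb1 (1.958) and for the sum of the 7 genes (1.958 against 0.3789).

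The response of H2-Eb1 at E4 differed between spinal cord and hindbrain GLAST-negative libraries by 6.58 on the log2 scale in the test of the difference itself (adjusted p = 0.034 in edgeR), and by 4.98 (adjusted p = 0.23) with the number in brackets of the titles as a block.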

How the results depend on the processing

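Counts of members called are given here as the value reported and then the value under an alternative. Apart from leaving out libraries, 190 of 228 such counts stayed within 1.5 times, as did 457 of 503 counts without 1 library, and the cause of a change was not tested where none is named. DESeq2 gave 3 and 1 in place of 0 in hindbrain GLAST-positive and spinal cord controls against hindbrain GLAST-negative, 3 in place of 1 in hindbrain GLAST-negative E1, 1 in place of 0 from E4 to Ech in the spinal cord, 0 in place of 1 in the level at E1, 1 in place of 0 in the response of the spinal cord at Ech, and 0 in place of 4 in cultured astrocytes. With no filter the counts were 2 and 1 in place of 0 for the same controls, 3 in place of 1 and 4 in place of 2 for hindbrain GLAST-negative E1 and Ech, 2 in place of 0 from E4 to Ech in the spinal cord, 1 in place of 0 for the level at E4 and for the spinal cord response at Ech, and 3 and 5 in place of 0 and 3 for the hindbrain GLAST-negative and GLAST-positive slopes. filterByExpr and RLE scaling gave 1 in place of 0 in GLAST-positive controls, and filterByExpr left no member to test in the subtypes. A fit of 1 population gave 4 and 5 in place of 1 and 2 for hindbrain GLAST-negative E1 and Ech, 3 in place of 5 for GLAST-positive E1, and 2 and 0 in place of 0 and 3 for the 2 hindbrain slopes. The myeloid covariate gave 0, 1 and 0 in place of 1, 4 and 2 in hindbrain GLAST-negative libraries, 1 and 3 in place of 5 and 5 at E1 and E4 in GLAST-positive, 3 and 3 in place of 5 and 6 in the spinal cord, and 0 in place of 3 from E1 to E4 there.

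The replicate number as a block gave 3 in place of 1 for hindbrain GLAST-negative E1 and 0 in place of 1 for the level at E1. The number in brackets as a block gave 0 in place of 1 for the spinal cord response at E4, and for the level at E1 it called H2-Aa and not Ciita. Same replicate numbers did not pair the libraries, and the labels do not state what the number in brackets marks. The replicate block gave 1 in place of 0 for the response at Ech. A term for the sheet number in the titles (up to 56 or above) gave 0 in place of 3 from E1 to E4 in the spinal cord and 0 in place of 1 for the level at E1 and the response at E4.

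Leaving out 1 library gave 0 to 1 for GLAST-positive controls, 0 to 1, 3 to 4 and 1 to 2 for hindbrain GLAST-negative E1, E4 and Ech (0 without E1 replicate 5, and 1 without any control or Ech replicate 1 or 3), 2 to 5, 4 to 6 and 2 to 3 for GLAST-positive E1, E4 and Ech, and 4 to 5, 5 to 7 and 5 to 5 for the spinal cord. It gave 0 to 4 from E1 to E4 in the spinal cord, 0 to 1 from E4 to Ech there (H2-Ab1 without E4 replicate 5) and in GLAST-positive libraries (H2-DMb1 without Ech replicate 1), 0 to 1 and 0 to 2 for levels at E1 and E4 (H2-Ab1 without spinal cord E4 replicate 5), and 0 to 1 for the spinal cord responses at E4 (0 without any spinal cord control, hindbrain control 4 or spinal cord E4 replicate 2) and Ech (1 without hindbrain control 2 or 5 or spinal cord Ech replicate 3). The slopes ranged from 0 to 4 in the spinal cord and from 0 to 4 in GLAST-positive libraries (1 without E1 replicate 6 or Ech replicate 1), and cultured astrocytes from 2 to 4. Direction turned in 4 gene values, none of them called: with the myeloid covariate H2-Eb1 at hindbrain GLAST-negative E1 was -0.68 and H2-DMa at Ech -0.20, H2-DMb1 at GLAST-positive Ech ranged from -3.32 without Ech replicate 1 to 5.24 without control replicate 3, and the spinal cord slope of H2-Ab1 from -0.31 without E4 replicate 2 to 0.81 without E4 replicate 1.

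No control library held more than 12 counts of a member, and controls held 0 counts of Cd74 and Ciita and 1 of H2-Aa, which limits what a fold change can say. Ciita had counts in 17 of 51 EAE libraries.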
